A study of Homo sapiens with 14 samples.

Results

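The genes EGR2, ADO, TARDBP, BMF, RREB1 and KIZ lie at loci where inherited variants have been associated with the risk of Ewing sarcoma. They were taken by name, 6 of the 19970 protein-coding genes that GENCODE release 44 places on the 22 autosomes and X, and each was studied over its gene body with 10, 50 and 200 kb on either side. EGR2 and ADO are neighbours, 3.52 kb apart, and share most of their windows, so the 6 genes form 5 loci. The peak lists come from CUT&RUN, in which an antibody bound to chromatin guides a nuclease that releases the DNA beside it for sequencing. All 14 libraries were made from untreated TC-32, an established Ewing sarcoma line labelled WT, so every result describes 1 cell line. An antibody to FLI1 was used in 4 libraries, set A replicates 1 and 2 (A1 and A2) and set B replicates 1 and 2 (B1 and B2). Set A also has 2 libraries for H3K27ac, a histone acetylation found at active promoters and enhancers. Set B has 2 libraries each for H3K9me3, a mark of constitutive heterochromatin, and for H3K27me3, the mark laid down by Polycomb repressive complexes. The other 4 libraries are IgG controls, 2 in each set, against which the peaks were called. The labels do not say what the letters A and B stand for, nor that the replicates came from separate cultures.

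Ewing sarcoma is driven by a fusion that joins EWSR1 to an ETS transcription factor, most often FLI1. The fusion keeps the ETS domain of FLI1, which reads the core GGAA, and it also binds tandem repeats of GGAA, where it can open chromatin and recruit acetyltransferases to form new enhancers. A polymorphic GGAA microsatellite near EGR2 has been described as such an enhancer, with longer alleles tied to higher EGR2 expression. Which of the repeats below is that one was not determined. An antibody to FLI1 cannot by itself separate the fusion from full-length FLI1.

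Repeats were located in the hg38 reference as runs of at least 4 consecutive GGAA units, on either strand, within 200 kb of the genes. TC-32's own alleles were not measured, and the unit counts are those of the reference. At the EGR2 and ADO locus 6 runs had 10 or more units, and 4 stretches of that locus are shown because FLI1 regions lay at the first in all 4 libraries, at the second in set A only, and at the others in none. Capitals mark the runs of at least 4 units, and the lower-case letters are the bases around them. All are on the plus strand of hg38 except the run of 14 units, which is on the minus strand.
EGR2 and ADO, runs of 9 and 12 units, chr10:62693044-62693267: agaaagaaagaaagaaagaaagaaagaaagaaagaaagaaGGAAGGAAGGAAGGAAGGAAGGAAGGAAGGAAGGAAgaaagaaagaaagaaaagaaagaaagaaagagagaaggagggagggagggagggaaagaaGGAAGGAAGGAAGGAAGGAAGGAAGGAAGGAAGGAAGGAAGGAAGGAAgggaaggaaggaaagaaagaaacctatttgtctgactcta
EGR2 and ADO, run of 10 units, chr10:62905874-62905993: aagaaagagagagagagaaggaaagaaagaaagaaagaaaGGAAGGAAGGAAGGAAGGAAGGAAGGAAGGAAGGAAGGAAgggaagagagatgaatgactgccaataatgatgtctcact
EGR2 and ADO, run of 14 units, chr10:62729188-62729323: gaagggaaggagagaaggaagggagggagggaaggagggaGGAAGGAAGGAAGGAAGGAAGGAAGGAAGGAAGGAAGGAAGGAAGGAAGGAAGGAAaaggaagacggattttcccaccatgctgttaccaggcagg
EGR2 and ADO, run of 10 units, chr10:62755003-62755122: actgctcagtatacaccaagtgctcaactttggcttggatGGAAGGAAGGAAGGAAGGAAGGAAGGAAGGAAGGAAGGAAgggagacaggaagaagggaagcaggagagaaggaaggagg

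The next stretches are the longest runs with FLI1 in all 4 libraries at the TARDBP and BMF loci, both on the plus strand, and the longest run without FLI1 at the TARDBP locus, on the minus strand. The bound and unbound runs of the TARDBP locus printed here differ by 2 units in the reference. Shorter runs of 10 units at that locus also had a FLI1 region near them in all 4 libraries. They lay in the same stretch of FLI1 signal as the run of 16 units. In set A the nearest summits were 4291 to 4953 bp from these runs. In set B they were 832 and 857 bp from the first and 198 and 223 bp from the second.
TARDBP, run of 16 units with FLI1, chr1:10992093-10992236: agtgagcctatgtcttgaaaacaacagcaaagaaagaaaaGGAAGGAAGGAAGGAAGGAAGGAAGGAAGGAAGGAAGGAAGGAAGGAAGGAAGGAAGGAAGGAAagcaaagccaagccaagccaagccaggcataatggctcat
BMF, run of 12 units with FLI1, chr15:40077281-40077408: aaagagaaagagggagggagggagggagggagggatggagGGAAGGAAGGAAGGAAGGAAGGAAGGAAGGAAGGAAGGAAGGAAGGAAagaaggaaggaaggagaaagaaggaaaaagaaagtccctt
TARDBP, run of 14 units without FLI1, chr1:10817901-10818036: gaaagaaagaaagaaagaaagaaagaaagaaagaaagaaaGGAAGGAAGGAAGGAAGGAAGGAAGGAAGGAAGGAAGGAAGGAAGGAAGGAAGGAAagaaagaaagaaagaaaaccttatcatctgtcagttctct

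The promoter of EGR2 that held the summits of all 4 FLI1 libraries is shown because it has no such run. It is the RefSeq window of GRCh38.p14 from 250 bases before to 50 bases after the start, on the minus strand, with each single GGAA or TTCC in capitals.
EGR2, chr10:62816317-62816616: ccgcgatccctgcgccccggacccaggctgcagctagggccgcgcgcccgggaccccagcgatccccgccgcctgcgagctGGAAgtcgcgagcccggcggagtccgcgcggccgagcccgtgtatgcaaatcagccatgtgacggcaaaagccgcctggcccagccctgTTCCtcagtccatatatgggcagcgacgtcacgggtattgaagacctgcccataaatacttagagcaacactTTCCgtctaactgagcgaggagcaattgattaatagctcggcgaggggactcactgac

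FLI1 was found near every one of the 6 genes in all 4 libraries. A FLI1 region lay within 10 kb of 6 of 6 genes in each library, as it did for 56.3% of all genes. At 50 kb the count was 6 of 6 with 73.9% of all genes, and at 200 kb it was 6 of 6 with 91.4%. H3K27ac was present in both replicates within 10 kb of 5 of 6 genes, KIZ being the exception, and of 28.3% of all genes. The count was 5 of 6 within 50 kb (44.8%) and 6 of 6 within 200 kb (70.6%). H3K9me3 was within 10 kb of RREB1 and KIZ, 2 of 6 (25.3%), and within 50 kb and 200 kb of all 6 (44.5% and 77.4%). H3K27me3 was within 10 kb of EGR2 and ADO, 2 of 6 (17.6%), and KIZ joined them at 50 kb, 3 of 6 (29.4%), with the same count at 200 kb (53.5%). The FLI1 counts at 200 kb were therefore close to what any gene shows. These are descriptions without a test, since the genes are few, neighbours share windows, and genes are not replicates of a condition.

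Few of the mark calls remained under a stricter limit. Among regions with a −log10 q of at least 5, both H3K27ac lists had a region within 10 kb of 2 of 6 genes (7.86% of all genes), the H3K9me3 lists of 1 (7.56%) and the H3K27me3 lists of 0 (6.53%). Requiring bases shared by both replicates left H3K27ac at 3 of 6 genes within 10 kb (23.8%).

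**Figure D1:**
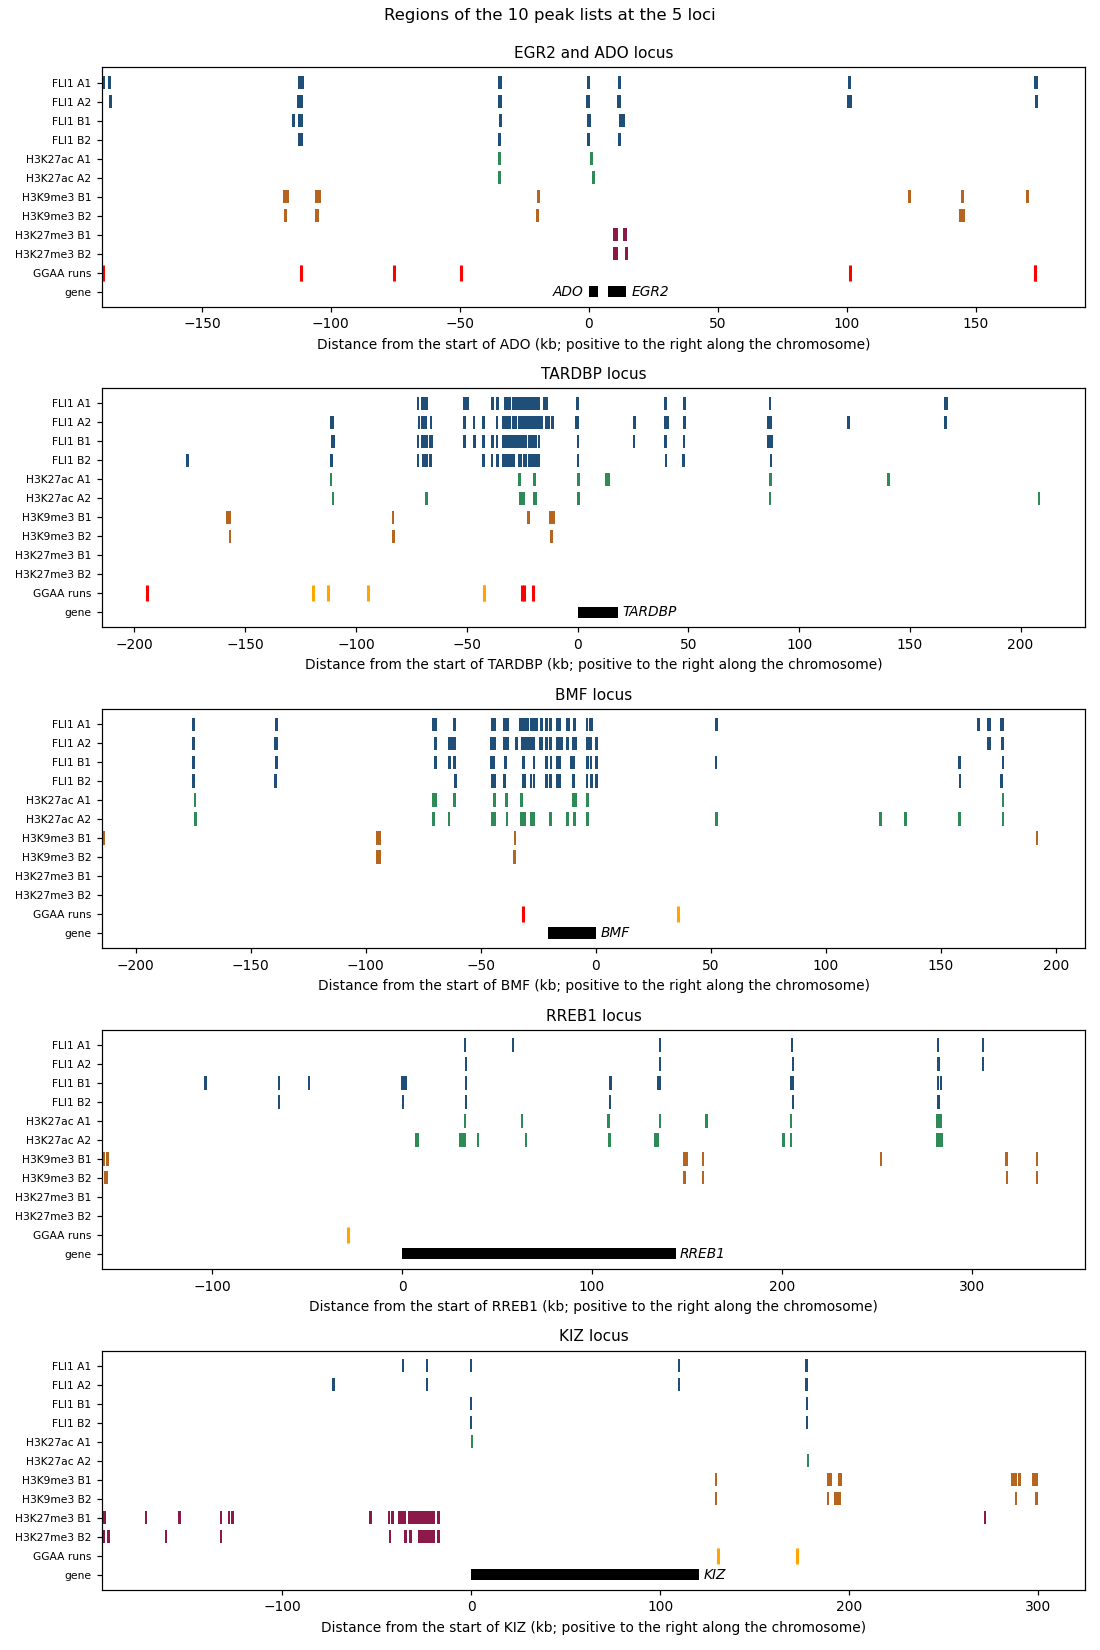
Regions of the 10 peak lists at the 5 loci, against the distance in kb from the start of the named gene, with FLI1 in blue, H3K27ac in green, H3K9me3 in brown and H3K27me3 in purple. Red ticks are GGAA runs of 10 or more units, orange ticks shorter runs, black bars the genes, and regions under 1.2 kb are drawn at that width. The dense FLI1 blocks lie upstream of TARDBP and over and downstream of BMF, and the H3K27me3 blocks near EGR2 and upstream of KIZ.

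Own promoters separated the genes more than the wide windows did. FLI1 was within 1 kb of an annotated start of the gene in all 4 libraries at EGR2, ADO, TARDBP and BMF, 4 of 6, beside 38.3% of all genes. At RREB1 it was there in both set B libraries and in neither of set A, and at KIZ in A1, B1 and B2 but not A2. H3K27ac marked an own start in both replicates at TARDBP, BMF and RREB1, 3 of 6 (14.8%). At RREB1 and BMF these were starts inside the gene. ADO and KIZ had it in A1 only and EGR2 in neither. H3K9me3 was at 0 of 6 own starts (2.21%). H3K27me3 was at the start of EGR2 alone among them, 1 of 6 (11.0%). FLI1 and H3K27ac stood together at the starts of TARDBP and BMF, 2 of 6 (10.9%). FLI1 and H3K27me3 stood together at EGR2, 1 of 6, a pairing held by 118 genes in all (0.591%). The H3K27me3 regions at EGR2 had a −log10 q of 3.47 to 4.22, all below the stricter limit of 5. The strongest FLI1 summits lay between those regions and not in them. This pairing was not put through the alternative settings given below. With the single outermost start of each gene in place of all annotated starts, the FLI1 count fell from 4 to 2 (33.8% of all genes). ADO and TARDBP remained. At EGR2 and BMF the FLI1 call, and so each pairing with a mark, rested on starts inside the gene.

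Numbers of FLI1 regions differed more than their presence. BMF had 13, 15, 11 and 11 regions within 10 kb in A1, A2, B1 and B2, where the median gene had 1. Between 98.6% and 99.2% of genes had as many or fewer than BMF. TARDBP had 1, 3, 2 and 1 within 10 kb but 11, 19, 21 and 16 within 50 kb, where the median gene had 2 or 3. Between 96.3% and 99.4% of genes had as many or fewer than TARDBP. Of its regions within 50 kb, 1, 2, 7 and 7 lay in a single stretch of 12854 bp, described below, which the libraries split differently. EGR2 and ADO each had 3, 4, 4 and 3 within 50 kb, RREB1 3, 2, 8 and 3, and KIZ 4, 2, 1 and 1. KIZ stood low at 200 kb, with 5, 4, 2 and 2 regions against medians of 7 to 9, and between 15.4% and 37.3% of genes had as many or fewer. B1 gave the high count at RREB1 and A1 at KIZ.

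**Figure D2:**
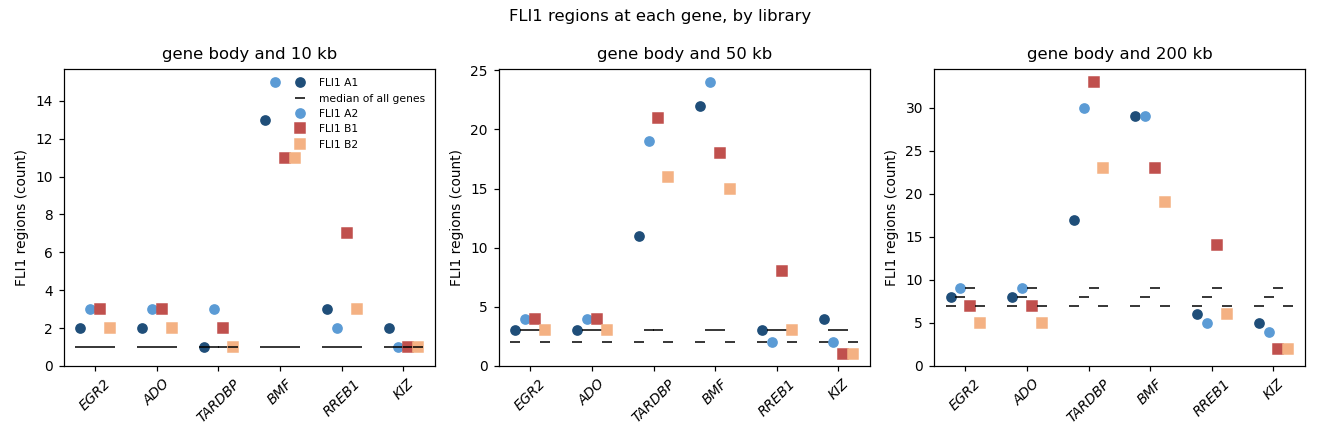
Number of FLI1 regions in each library (circles set A, squares set B) within the gene body and 10, 50 and 200 kb, with a dash at the median over all genes for that library. BMF stands high in all 3 panels with 11 to 15 regions at 10 kb, TARDBP from 50 kb on, and KIZ lies at 2 to 5 regions at 200 kb.

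Merging overlapping FLI1 regions of the 4 libraries gave 96 regions over the 5 loci within 200 kb, of which 30 were in all 4 (29.3% of the 55109 regions of the genome were). By locus these were 4 of 11 at EGR2 and ADO, 9 of 33 at TARDBP, 13 of 32 at BMF, 3 of 14 at RREB1 and 1 of 6 at KIZ. Of the 30, 13 lay within 1 kb of a protein-coding start (40.9% of the 16163 such regions of the genome) and 11 overlapped H3K27ac in both replicates (14.1%). A run of at least 4 units within 250 bp of a summit was found in 3 of the 30 (7.89%). The deposited fold of a region, taken from the authors' peak caller as signal over IgG, was used only as a rank within its own list. A percentile below is the share of regions of that list with a fold as high or lower.

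EGR2 encodes a zinc-finger transcription factor of the early growth response family that drives myelination by Schwann cells. Its gene (ENSG00000122877) runs from chr10:62811996 to 62819167 on the minus strand. FLI1 was strongest at the promoter printed above: in A1, A2, B1 and B2 the fold was 20.9, 19.7, 60.8 and 26.4. Those values stood at percentiles 91.9, 91.7, 99.7 and 96.5 of their lists, so more than 91% of the regions of each library ranked below it or level with it. The 4 summits fell at 62816585, 62816585, 62816584 and 62816573, between 200 and 212 bp upstream of the nearest annotated start and in an intron of the longer transcripts. They lay within 12 bp of each other.

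H3K27me3 lay on both sides of that FLI1 site. In replicate 1 it ran from 62814057 to 62816087 and from 62817894 to 62819490, and in replicate 2 from 62814209 to 62816045 and from 62819121 to 62819732. The FLI1 summits fell in the gap between the blocks in both replicates, and the strongest FLI1 region of no library reached them. A weaker FLI1 region of A2, from 62816030 to 62816256 with a fold of 5.86, overlapped the end of the downstream block. In B1 a weaker region from 62817891 to 62818332, with a fold of 5.58, overlapped the upstream block of replicate 1. Folds of the 4 H3K27me3 regions lay between 4.65 and 5.05, at percentiles 46.5 to 69.8 of their lists. No H3K27ac region overlapped the gene.

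ADO encodes 2-aminoethanethiol dioxygenase, an enzyme that oxidises thiols, among them N-terminal cysteines of proteins, with molecular oxygen. The gene (ENSG00000181915) runs from chr10:62804720 to 62808479 on the plus strand. FLI1 covered its start with folds of 18.8, 16.4, 15.4 and 8.64 in A1, A2, B1 and B2, at percentiles 90.4, 88.7, 83.9 and 56.3. The summits of set A lay 91 and 97 bp before the start and those of set B 159 and 168 bp after it, in its exon, so the summits of the sets lay on different sides of the start. H3K27ac lay inside the gene in both replicates but at different bases, from 62805698 to 62806206 in A1 and from 62806274 to 62806744 in A2. These same regions give EGR2 its H3K27ac call within 10 kb, and the replicates shared 0 bases there.

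Farther upstream of ADO, 2 more FLI1 regions were in all 4 libraries. One, singled out after its values were seen, lay 33.7 kb before ADO from 62769557 to 62771039 and overlapped H3K27ac in both replicates, which shared 216 bases. Its folds were 8.40, 16.4, 5.62 and 8.63, with B1 at percentile 16.9 and A2 at 88.7. The other held the runs of 9 and 12 units and lay 110.5 kb before ADO, between protein-coding genes, from 62691530 to 62694193. Its folds were 12.5, 12.2, 10.9 and 12.5 at percentiles 80.6, 81.9, 68.9 and 78.1, and no mark overlapped it. Set A had a single region across both runs, whereas B1 and B2 each had 2 regions, one on either side of the run of 9 units, and the second of B1 reached into the run of 12 units. The folds given for B1 and B2 are those of the first region, the one farther from the run of 12 units. The second regions held the summits nearest to that run. Their folds were lower, 8.80 in B1 and 5.41 in B2, at percentiles 56.2 and 15.8.

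**Figure D3:**
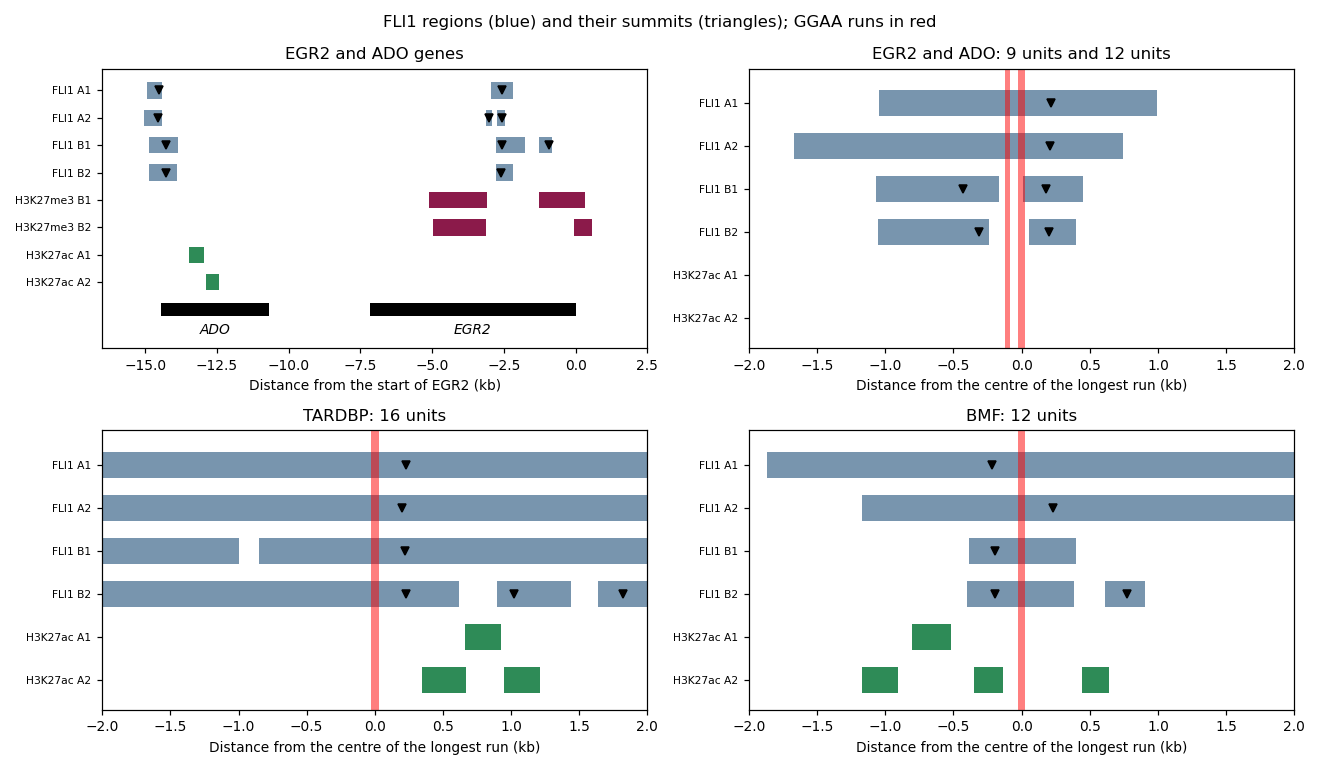
Close views of FLI1 regions in blue, their summits as triangles, H3K27me3 in purple, H3K27ac in green and GGAA runs in red, against the distance in kb from the start of EGR2 or from the centre of the longest run, positive toward higher coordinates. At EGR2 the 4 strongest summits lie between the H3K27me3 blocks, and at the runs the nearest summits lie 181 to 231 bp from the centre of the longest run. At BMF and TARDBP the H3K27ac regions lie beside the runs and at different places in A1 and A2.

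The other long runs of the EGR2 and ADO locus had FLI1 in some libraries or none. A run of 12 units 188.2 kb before ADO had a region within 250 bp in A1 alone, with a fold of 6.17. The run of 10 units 86.7 kb beyond EGR2 had one in A1 and A2 and in neither library of set B. A run of 11 units 158.6 kb beyond EGR2 had one in A1. The runs of 14 units, 75.4 kb before ADO, and of 10 units, 49.6 kb before it, had none in any library. The bound runs of the locus, of 9 and 12 units, lay in the same region. No region of B1 or B2 overlapped the run of 9 units, so it is not a separate bound site.

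RREB1 encodes a large zinc-finger factor that binds RAS-responsive elements and acts with SMADs downstream of TGF-beta and RAS signals. Its gene (ENSG00000124782) spans 144.4 kb of chromosome 6, from 7107597 to 7251980 on the plus strand. At its start FLI1 was found in set B only, with folds of 10.1 in B1 and 9.90 in B2 at percentiles 65.2 and 65.6. The single region within 10 kb in all 4 libraries lay in an intron from 7140764 to 7141395, with folds of 5.35, 7.39, 8.80 and 12.2 in A1, A2, B1 and B2. Its percentiles ran from 25.2 to 76.9, so it was an ordinary region of each list. H3K27ac overlapped it in both replicates, from 7139999 to 7141175 in A1 and from 7139815 to 7140931 in A2.

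The strongest FLI1 region near RREB1 was not at the gene itself. It lay 137.3 kb beyond the gene at the start of RIOK1, which encodes an atypical protein kinase, from 7389295 to 7390682. The folds were 20.3, 41.5, 49.2 and 55.5 at percentiles 91.5, 97.5, 99.3 and 99.7, with H3K27ac in both replicates. A start of CAGE1 lies in the same region. An H3K27ac region of each replicate was centred close to that start, 0.029 kb away in A1 and 0.092 kb in A2. H3K9me3 began 3.80 kb past the end of RREB1 in replicate 1 and 3.31 kb past it in replicate 2. The locus held 1 run of 4 units, with no FLI1 region near it, and 0 H3K27me3 regions.

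TARDBP encodes TDP-43, an RNA-binding protein that regulates splicing and aggregates in motor neuron disease. Its gene (ENSG00000120948) runs from chr1:11012344 to 11030528 on the plus strand. At its start, FLI1 folds were 26.1, 26.0, 20.1 and 12.6 in A1, A2, B1 and B2, at percentiles 94.4, 94.8, 90.7 and 78.7. All 4 summits lay in an untranslated exon, 17 to 78 bp from an annotated start, and H3K27ac overlapped the region in both replicates. The replicates of H3K27ac shared 444 bases there.

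A cluster of FLI1 signal upstream of TARDBP held the region of the 5 loci with the highest mean percentile over the 4 libraries, 99.2. It extended over 12854 bp, from 10982761 to 10995614, began 16.7 kb before the gene, and reached within 1 kb of a start of C1orf127. Its folds were 115, 144, 40.7 and 36.2 at the summits beside the run of 16 units, at percentiles 99.7, 99.8, 98.5 and 98.6. Thus in every library less than 2 in 100 regions ranked above it. Set A called the stretch as 1 and 2 regions and set B as 7 and 7. It also held 2 runs of 10 units, and both set B libraries had a further strong summit beside the second, with folds of 41.4 in B1 and 28.1 in B2. H3K27ac was called inside it in both replicates, at nearly separate bases, and H3K9me3 in replicate 1 only.

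Another region of all 4 libraries lay 21.0 kb beyond TARDBP, from 11051496 to 11052920. It had no run and no mark, with folds of 22.1, 14.0, 29.9 and 24.6 at percentiles 92.7, 85.5, 96.5 and 95.6. A pair of runs of 5 units inside C1orf127, 42.2 kb before TARDBP, had FLI1 in A2, B1 and B2 but not in A1. The run of 14 units printed above, 194.3 kb before TARDBP, had none. No H3K27me3 region was found within 200 kb of the gene in either replicate.

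BMF encodes a BH3-only protein of the BCL2 family that promotes apoptosis, as after loss of cell attachment. Its gene (ENSG00000104081) runs from chr15:40087890 to 40108892 on the minus strand. Within 10 kb of it, 8 FLI1 regions were in all 4 libraries, the most of the 6 genes. The one with the highest mean percentile over the 4 libraries held the run of 12 units and lay 8.04 kb past the 3′ end, from 40075473 to 40079851. Its folds in A1, A2, B1 and B2 were 32.3, 22.9, 21.1 and 20.9 at percentiles 96.0, 93.7, 91.7 and 93.4. More than 91% of the regions of each library ranked below it or level with it. H3K27ac overlapped it in both replicates, but no base was shared between them there.

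The other regions over BMF that all 4 libraries called varied more in rank between libraries. The region nearest to an annotated start, one inside the gene, had folds of 6.20, 5.95, 4.62 and 7.76 at percentiles 41.9, 40.3, 5.23 and 46.4, without H3K27ac over it. An intron region 6.99 kb from the nearest start had folds of 11.4, 13.8, 7.60 and 14.8 with H3K27ac in both replicates, from 40098668 to 40100585 in A1 and from 40099055 to 40100389 in A2. Another intron region, 12.5 kb from a start, had folds of 14.7, 26.6, 9.66 and 7.49, with set A at percentiles 85.1 and 95.0 and set B at 62.0 and 43.7. In A2 its fold was above that of the region with the run. H3K9me3 lay 13.9 and 13.6 kb past the 3′ end in the replicates. No H3K27me3 region lay within 200 kb.

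KIZ encodes kizuna, a centrosomal protein that holds the pericentriolar material together at mitosis. Its gene (ENSG00000088970) spans 120.6 kb of chromosome 20, from 21125983 to 21246622 on the plus strand. FLI1 covered the start in A1, B1 and B2, with folds of 8.62, 9.65 and 10.5 at percentiles 65.8, 61.7 and 68.6, and was not called in A2. An intron region from 21235459 to 21236103 was called in both libraries of set A, with folds of 5.17 and 5.54, and in neither of set B. No single region within 50 kb was in all 4 libraries, so the call of FLI1 there rests on different regions in different libraries. The single region of all 4 libraries within 200 kb lay 55.9 kb beyond the gene at the start of XRN2, which encodes a nuclear 5′ to 3′ exoribonuclease. Its folds were 18.8, 29.8, 44.6 and 18.1 at percentiles 90.4, 95.8, 99.0 and 90.5, and H3K27ac overlapped it in A2 only.

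Upstream of KIZ lay a broad H3K27me3 block. In replicate 1 its longest region covered 14410 bp, from 21092431 to 21106840, and in replicate 2 it covered 8927 bp, from 21097996 to 21106922. Both ended 19.1 kb before the gene and stood at percentiles 97.3 and 97.4 of fold in their lists. Over the window of 50 kb the replicates shared 12355 bases of H3K27me3. H3K9me3 was called 8.62 kb beyond the gene in both replicates, over 206 and 212 bp, with folds of 9.25 and 10.4, both at percentile 99.9 of their lists. H3K27ac was called at the start in A1 alone, and 2 runs of 5 units had no FLI1 region near them.

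**Figure D4:**
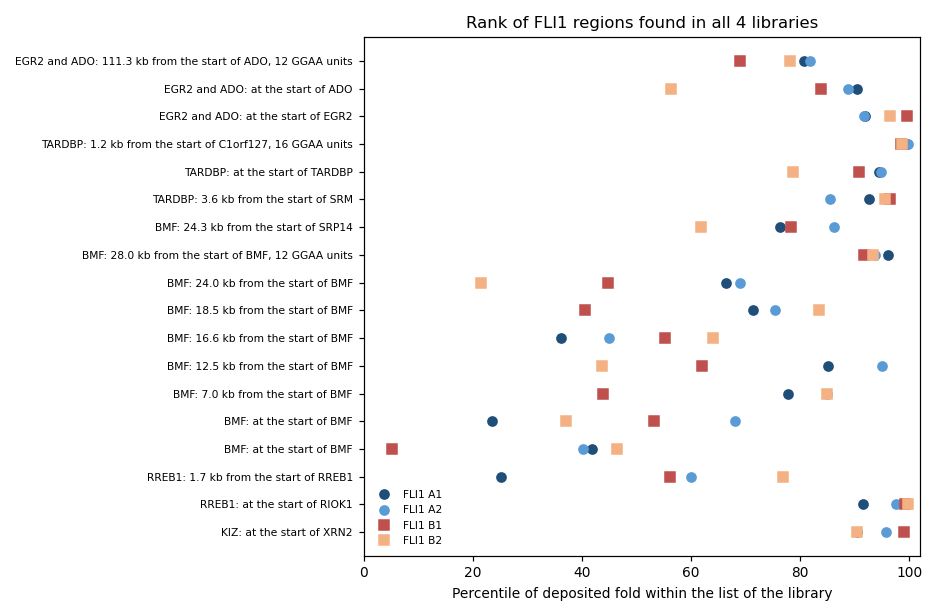
Percentile of deposited fold within its own list, in each FLI1 library, for the regions of all 4 libraries that lie within 10 kb of a gene, rank among the 2 highest of a locus, or hold a run. The region of 16 units at TARDBP stands above 98% in each library, while the regions over BMF range from 5.23% to 96.0%.

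Over the 5 loci the reference held 23 runs of at least 4 units. FLI1 lay within 250 bp in all 4 libraries at 6 of them, in 1 to 3 libraries at 6, and in none at 11. Among runs of 10 or more units, 5 of 11 had FLI1 in all 4 libraries, beside 31.2% of 3321 such runs in the genome. The run of 9 units was the sole one of 6 to 9 units and had it (12.8% of 2785). It shares its region with a run of 12 units, and no region of B1 or B2 overlapped it. None of 11 runs of 4 or 5 units had it (5.34% of 10244). The 5 bound long runs lay in 3 regions and 3 of them share 1 region, so they are not 5 independent sites. These counts, in the genome too, ask for a region near the run and not for a summit. At the first run of 10 units near TARDBP the nearest summits were 4953, 4925, 832 and 857 bp away in A1, A2, B1 and B2. At the second they were 4319, 4291, 198 and 223 bp away. By gene, a FLI1 region of all 4 libraries at a run lay within 200 kb of EGR2, ADO, TARDBP and BMF, 4 of 6, beside 17.5% of all genes. RREB1 and KIZ had no run of 6 or more units within that distance.

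Summits stood beside the runs and not on them. At the run of 16 units they were 231, 203, 218 and 230 bp from its centre in A1, A2, B1 and B2, and at BMF's run of 12 units 219, 231, 194 and 195 bp. The nearest summits to the run of 12 units at EGR2 and ADO were 215, 206, 181 and 203 bp away. In the genome the median distance was 242, 236, 218 and 225 bp in the 4 libraries, and at most 0.967% of runs had that summit inside them. With a limit of 100 bp between run and summit, the count of genes with a FLI1 region at a run went from 4 to 0 (5.32% of all genes). How well reads map inside the repeats was not tested.

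**Figure D5:**
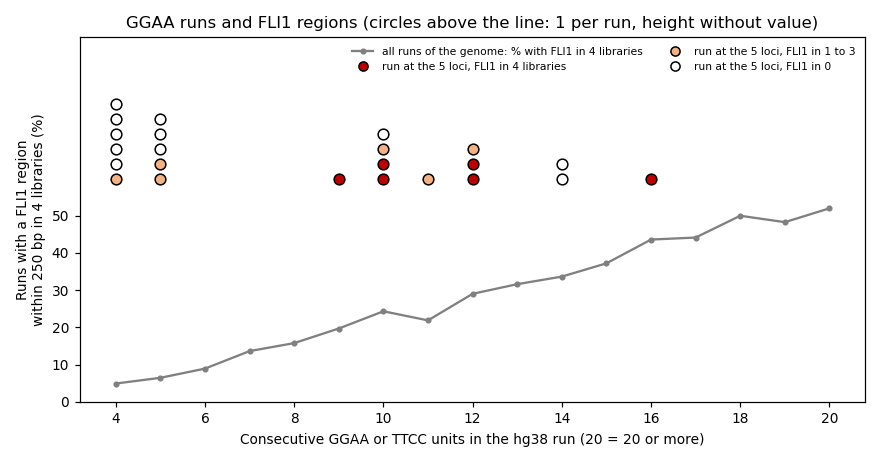
Share of GGAA runs in the hg38 genome with a FLI1 region within 250 bp in all 4 libraries, by number of units (grey line), and above it 1 circle for each of the 23 runs at the 5 loci, filled red for FLI1 in all 4 libraries, light for 1 to 3 and white for 0. The circles' height carries no value. Bound runs, called by a region within 250 bp and not by a summit, have 9 to 16 units. The run of 9 units shares its region with a run of 12 units. Runs of 10 and 14 units are also among the unbound.

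The promoters were searched for single ETS cores and for 1 longer ETS site. RefSeq windows were found for all 6 genes, 10 in all, and each held 2 to 5 GGAA or TTCC cores, where the median of 21548 promoters was 3 with quartiles of 2 and 5. None held CCGGAAGT or its reverse complement ACTTCCGG, the high-affinity ETS site, which 5.43% of promoters do. That says only that these letters are absent from these windows.

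Genes related by function were taken as 45 in 6 lists, each chosen for kinship with a member. FLI1 was within 1 kb of an own start in all 4 libraries at 25 of 45 (38.3% of all genes), H3K27ac in both replicates at 10 (14.8%) and H3K27me3 at 4 (11.0%). In the EGR family and its co-repressors these were EGR1 and NAB2 for FLI1 and EGR3 and EGR4 for H3K27me3, and EGR3 also had FLI1 in A1, B1 and B2. EGR1, an immediate early factor, had FLI1 at percentiles 99.1, 99.2, 99.8 and 96.6 of fold. Of 15 BCL2 family genes 9 had FLI1 at a start, among them BCL2L1, which encodes the survival protein BCL-XL, at percentiles 99.6, 99.2, 99.7 and 99.4. Among RNA-binding genes kin to TARDBP it was at HNRNPA2B1, which encodes a splicing regulator, at percentiles 95.3, 97.2, 85.2 and 93.0. The centrosome list had it at PCM1 and PCNT, 2 of 5, the RAS and MAPK list at NRAS, HRAS and MAP2K1, 3 of 9, and the thiol and taurine list at CSAD and GADL1, 2 of 3.

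Likeness to other genes was measured as the Euclidean distance between log2(1 + covered bases / 100) in the 10 lists within 50 kb. The nearest genes were SAT2, AZGP1 and DNMT3A for EGR2 and ADO, at distances of 1.60 to 2.04 where the median gene was at 8.75. For TARDBP they were ZNF703, H2BC6 and PREX1 at 0.73 to 1.30, and for BMF STRBP, PYGO2 and PBXIP1 at 1.46 to 1.57. RREB1 was nearest to NSMAF, MSL2 and NECAP2 at 1.22 to 1.43, and KIZ to LRP3, SLC7A10 and APLP1 at 2.34 to 2.40.

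The labels were checked at loci known to be bound by the fusion in Ewing sarcoma. Within 10 kb, FLI1 regions in A1, A2, B1 and B2 numbered 6, 7, 6 and 5 at NR0B1, 9, 16, 10 and 6 at CCND1, and 9, 10, 7 and 5 at NKX2-2. H3K27ac had 0 regions within 10 kb of NR0B1, CCND1 and NKX2-2 in either replicate. Within 50 kb, A1 and A2 had 0 and 0 at NR0B1, 2 and 2 at CCND1, and 1 and 2 at NKX2-2. H3K27me3 was called within 10 kb of NKX2-2 in both replicates. A missing H3K27ac call at the 6 genes is to be read with these counts beside it. Region numbers ranged from 29339 to 40590 in the FLI1 lists and from 10219 to 36687 in the lists of the marks. Read depth is unknown from these files, so the absence of a region means that none was called and not that the protein or mark was absent.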

How the data were processed

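Per the submitters' processing notes, cutadapt 4.4, Bowtie2, Picard 2.17.11 and MACS2 2.1.1 were used with hg38. Per the names in the deposited files, peaks were called for each antibody library alone against the IgG library of its set and number, after removal of duplicates, so libraries of 1 set and number share a control. FLI1 and H3K27ac lists are narrow and H3K9me3 and H3K27me3 lists broad. The authors deposited for each peak a score, a fold over control (a ratio), and −log10 p-values and q-values, and no counts. The lowest −log10 q was 2.00, so the lists end there.

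Overlapping peaks of 1 list were merged, keeping the most significant. FLI1 regions of the 4 libraries that shared at least 1 base were joined. Windows and starts came from GENCODE release 44, GGAA runs from hg38, promoters from RefSeq (GRCh38.p14). A mark was called for a gene when both its lists had a region there, not always the same one. Regions named in full were those of all 4 libraries within 10 kb of a gene, the 2 of highest mean percentile at each locus, and those with a run near a summit. No test was made. The members, lists and rules were chosen with earlier results of these data known. The steps were tested on simulated data (1000 of 1000 windows and 200 of 200 planted runs were right). Python 3.11.15, numpy 2.4.6, pysam 0.24.0, samtools 1.23.1 and matplotlib 3.10.9 were used. Alternatives covered peak strength, window, replicate rule, run length, distance to the summit and leaving out each library. Requiring 1 base covered in all 4 libraries, counting a run anywhere in a region, regions of at least 2 libraries and starts in at least 3 libraries were added after the data were seen. The IgG libraries and reads were not analysed here. The related genes are given as counts, with some named, and 1 result is not reported here.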

Additional observations from a re-analysis of the deposited data

How the results depend on the processing

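Of 114 alternatives over 15 counts, 95 stayed within 1.5 times the reported count and 19 fell below it. With a −log10 q of at least 5, the counts of members went from 5 to 2 (H3K27ac, 10 and 50 kb) and from 6 to 3 (200 kb), from 2 to 1, 6 to 1 and 6 to 3 for H3K9me3 at 10, 50 and 200 kb, and from 2 to 0, 3 to 1 and 3 to 1 for H3K27me3. With the more significant 50% of each list, H3K27ac went to 2, 2 and 3 at the 3 distances, H3K9me3 to 2 at 50 kb, and the 30 FLI1 regions of all 4 libraries to 17. Bases shared by both replicates left H3K27ac at 3 within 10 kb, and flanks around the gene start alone left H3K27ac at 3 and H3K9me3 at 0. The gene start alone left FLI1 at 2 own starts. Runs within 100 bp of a summit left 0 genes. FLI1 within 10, 50 and 200 kb kept 4 to 6 genes under every alternative run.

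Leaving out 1 FLI1 library gave 6 genes at each distance, 4 to 5 own starts (5 without set A replicate 2), 4 genes with a run and 30 to 36 regions. Leaving out 1 replicate of H3K27ac gave 5 to 6 genes within 10 and 50 kb, and of the other marks changed no count. No paired analysis was possible because no result comes from a test. The marks have 2 replicates, the depth is unknown, and a stricter limit on q removes most mark calls at these loci.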

Other observations

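NKX2-2, a homeobox factor required for the oncogenic phenotype of Ewing sarcoma cells, is known as a target of the fusion and lies 264.4 kb beyond the end of KIZ, outside the windows above. Within 50 kb of NKX2-2, FLI1 regions numbered 14, 19, 10 and 7 in A1, A2, B1 and B2. The strongest of each library had a fold of 64.0, 88.9, 56.9 and 25.7, at percentiles 98.8, 99.3, 99.6 and 96.1. In A1 it ran from 21553403 to 21558833, and the regions of the other libraries lay within the same stretch. Inside it, H3K27ac covered 21554287 to 21554700 in A1 and 21554506 to 21554827 in A2. H3K27me3 was called once in each replicate, at 21521052 to 21522199 in B1 and at 21521154 to 21521360 in B2. No region at the KIZ gene itself ranked as high in any library.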
